A study of Mus musculus with 7 samples.

Results

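Plvap-positive fenestrated-type endothelial cells were picked from 7 single cell RNA libraries of microvessels of the mouse brain, where 1388 cell barcodes met the criteria among 31753 endothelial barcodes (4.37%) and 43091 barcodes in all. A barcode stands for the RNA of 1 droplet, in most cases that of 1 cell. Barcodes with at least 500 genes and at most 15% mitochondrial UMIs (unique molecular identifiers, which mark single captured RNA molecules) were kept, which left 39315. A barcode counted as endothelial when at least 3 of Pecam1, Cdh5, Cldn5, Flt1, Ly6c1, Egfl7, Itm2a and Eng were detected and Vtn, Acta2 and C1qa together held at most 1 UMI. It counted as a member when at least 3 of the 6 genes Plvap, Igfbp3, Rbp7, Gpihbp1, Esm1 and Cd300lg were detected. The members were thus selected on the measured values of these 6 genes, which are described and not tested. All mice were untreated C57Bl6, an inbred laboratory strain: 3 libraries were from 12-month-old and 4 from 3-month-old mice. Each library was made from 1 hemisphere, freed of brain stem, olfactory bulb and cerebellum, digested with collagenase and enriched on magnetic beads with antibody to CD31, which Pecam1 encodes. The series deals with a procedure for isolating brain microvessels. The labels do not say whether libraries of 1 age came from different animals. The 3-month libraries came from more than 1 animal, by Xist, a transcript of female cells, and Ddx3y, a gene of the Y chromosome (values below). P-values of the class comparisons measure the spread of differences within these libraries, and those of the ages the spread between libraries. Either spread may be technical in part.

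Endothelial cells line all blood vessels. In most of the brain their tight junctions, low vesicle traffic and dedicated transporters form the blood-brain barrier, a state kept up by Wnt and beta-catenin signalling. In the choroid plexus, the circumventricular organs and many peripheral organs, capillaries are instead pierced by fenestrae, round pores bridged by diaphragms made of the Plvap protein. Such vessels let water and small solutes pass, depend on VEGF signals from the tissue around them, and lack much of the barrier programme. Plvap is also known from immature and venous brain endothelium, which makes a comparison with venous barcodes part of the description. The labels give the tissue as brain microvessels of multiple cell types and name no fenestrated vessels, so the anatomical source of the members is not known from the sources used here.

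Within the members, Plvap was detected in 98.6%, Igfbp3, which encodes a carrier of insulin-like growth factors, in 89.8%, and Cd300lg, which encodes an endothelial surface receptor, in 82.8%. Rbp7, a retinol binding protein gene, was detected in 73.7%, Gpihbp1, whose product carries lipoprotein lipase to the capillary lumen, in 71.4%, and Esm1, a proteoglycan gene of VEGF-stimulated endothelium, in 66.9%. All 6 genes were found together in 483 members, 5 in 396, 4 in 300 and 3 in 209. Just outside the rule stood 174 endothelial barcodes with 2 of the genes, of which 76.4% held Plvap, and 2080 with 1, of which 10.2% did. The median depth was 2731 UMIs at 0 genes, 4682.5 at 1, 1754 at 2, 1626 at 3, 1939.5 at 4, 3158 at 5 and 6501 at all 6, so among members the number of genes detected went with depth. The remaining 28111 endothelial barcodes (88.5%) had none of the 6. Where the other 5 genes alone gave at least 3, 98.3% of those barcodes also held Plvap.

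Total depth ran from 8706961 to 44861008 UMIs per library, and member UMIs summed to 179695 to 2812094 per library. Members were deeper than the other endothelial barcodes in each library, with medians of 1184, 3338 and 2529 against 1075, 2762 and 1723 UMIs per barcode at 12 months, and 4881.5, 7335, 7453 and 8457 against 3007, 5353, 4514 and 4863.5 at 3 months. A doublet score called 174 members (12.5%) doublets, that is droplets that may hold more than 1 cell, against 1114 of the other endothelial barcodes (3.67%). The call was more frequent among members in each of the 7 libraries, and without these barcodes the log2 fold change against the other endothelial barcodes moved by over 1.5 times in 24 of 111 named genes, in each case away from 0 and by at most 1.06 on the log2 scale. Of these 24 genes 23 were lower in members, among them Slc2a1, Lef1 and Mfsd2a. Between pairs of libraries 1 to 18 barcode sequences recurred, at most 0.308% of the smaller library, and none of them was a member in both. The libraries from 12 months were single indexed and those from 3 months dual indexed, per the labels, and the file headers name Cell Ranger 4.0.0 for the first set and 6.1.1 for the second. Age, index kit, program version and depth therefore cannot be told apart. Sex make-up also differed between the ages. By Xist and Ddx3y all 12-month libraries were male, while at 3 months replicates 1 and 2 were female and replicates 3 and 4 male.

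Members made up 411 of 3689 endothelial barcodes (11.1%, 95% exact Clopper-Pearson interval 10.1 to 12.2%) in 12-month replicate 1, 53 of 5139 (1.03%, 0.773 to 1.35%) in replicate 2 and 210 of 7544 (2.78%, 2.42 to 3.18%) in replicate 3. At 3 months they made up 196 of 3552 (5.52%, 4.79 to 6.32%), 115 of 3376 (3.41%, 2.82 to 4.07%), 311 of 5089 (6.11%, 5.47 to 6.8%) and 92 of 3364 (2.73%, 2.21 to 3.34%). The ages overlapped, and 12-month replicates 1 and 2 were the highest and the lowest of the 7 libraries. The mean share was 4.99 ± 5.4% at 12 months (SD, n = 3), against 4.44 ± 1.63% at 3 months (SD, n = 4), a difference of 0.543 percentage points with p = 0.914 (two-sided exact permutation test over 35 assignments, which cannot give less than 0.0286). The difference was -2.54 percentage points without 12-month replicate 1 and -0.0265 without 3-month replicate 4, so its sign rested on single libraries. Intervals cover counting error only.

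Barcodes that passed a gate of choroid plexus epithelial genes, at least 3 of Kl, Folr1, Clic6, Kcnj13, Otx2 and Sostdc1, numbered 57, 13 and 14 in the 12-month libraries, against 11, 15, 35 and 1 in the 3-month libraries. At each age the library with most of them was also the one with the largest member share, over 3 and 4 libraries and with no test. At 12 months the counts followed the order of the member shares in all 3 libraries. At 3 months they did not, as replicate 1 had fewer than replicate 2 (11 against 15) but a larger member share (5.52% against 3.41%). Taken as a percentage of kept barcodes, the order at 12 months was not kept either. Epithelium-gated barcodes then made up 0.205% in replicate 2, against 0.144% in replicate 3, with member shares of 1.03% and 2.78%.

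**Figure D1:**
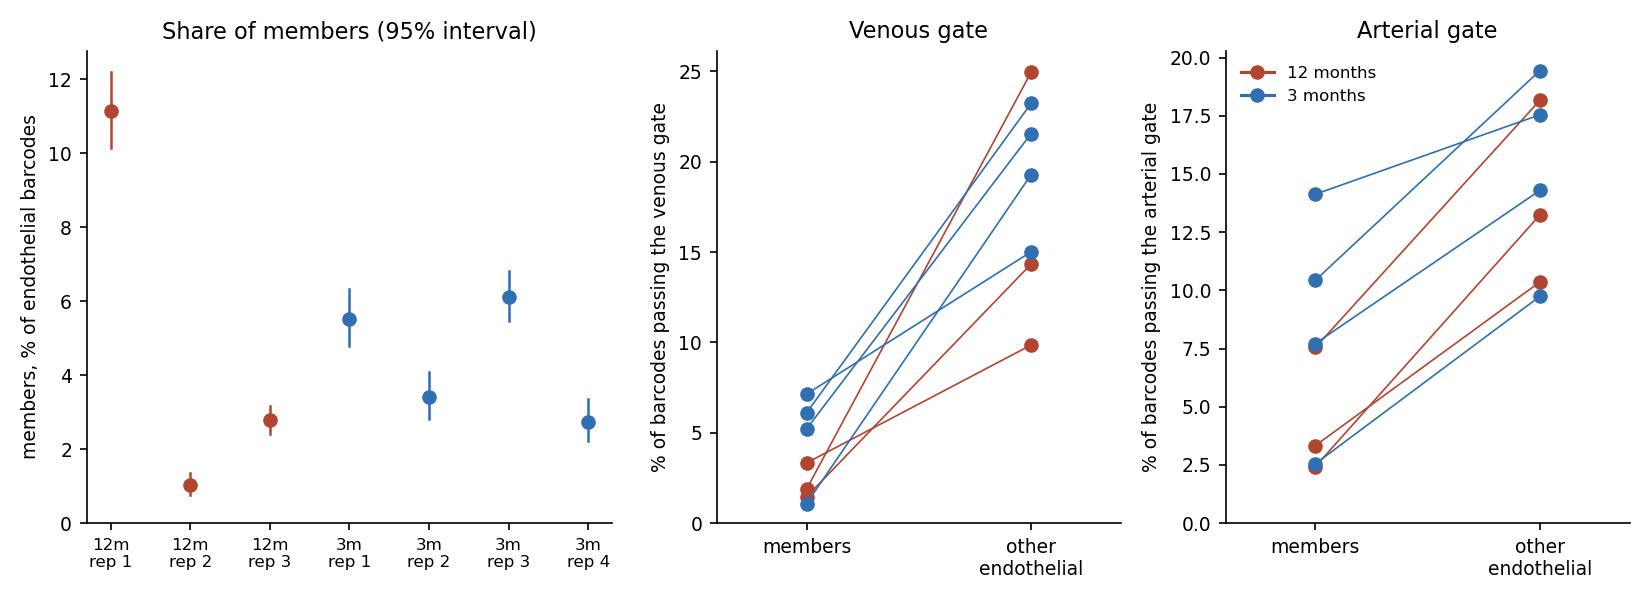
Member share and overlap with the venous and arterial gates, by library. Left, members as a percentage of endothelial barcodes with 95% exact intervals, from 1.03% to 11.1% with overlapping ages. Middle and right, the percentage of members and of other endothelial barcodes that passed the venous and the arterial gate, 1 line per library (12 months in red, 3 months in blue); members lie lower in every library at both gates.

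Members passed gates for other vessel types less often than the other endothelial barcodes did. At least 3 of the 8 venous genes Vwf, Nr2f2, Vcam1, Ackr1, Selp, Lcn2, Lrg1 and Slc38a5 were detected in 3.75 ± 2.42% of members, against 18.3 ± 5.44% of the other endothelial barcodes (SD, n = 7 libraries each). The share was lower in members in 7 of 7 libraries, by 14.6 percentage points on average (p = 0.0156, two-sided exact sign-flip permutation test, the smallest p that 7 pairs allow). An arterial gate, at least 3 of Bmx, Gkn3, Sema3g, Efnb2, Hey1, Fbln5, Cytl1 and Stmn2, was passed by 6.88 ± 4.42% of members, against 14.7 ± 3.84% of the others, again lower in 7 of 7 libraries (p = 0.0156, same exact permutation test). Each endothelial barcode was also thinned to 1500 UMIs and all 3 gates were applied again to the thinned counts. Members that no longer passed the member gate then counted among the others. In 12-month replicate 1, 2622 of 3689 endothelial barcodes were too shallow and left out. Of members so gated 0.721% passed the venous gate, against 11.2% of the others, and 1.2% passed the arterial gate, against 8.5%.

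Across all genes, summed UMI counts of members and of the other endothelial barcodes of the same libraries were compared with edgeR's quasi-likelihood test with the library as a term and Benjamini-Hochberg adjustment. Of 12028 genes tested, 2359 (19.6%) were higher and 2764 (23%) were lower in members at an adjusted p under 0.05, and the median log2 fold change was -0.07. Of the called genes, 700 of the 2359 higher and 825 of the 2764 lower did not overlap between the classes. A share of called genes in any list is read against these percentages. Levels are given as CPM, UMIs scaled to a class total of 1000000 in that library, and a positive log2 fold change means higher in members. The gate genes and the 3 barred genes are left out of all counts. With barcodes thinned to 1500 UMIs the count was 2908 genes, and after removal of called doublets 5036 genes, in place of 5123.

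The 12 genes with the highest change that met the naming rule came from several classes. Btnl9, which encodes a membrane protein of the immunoglobulin superfamily and lies at chr11:49165585-49187159 in the mm10 build, was found at 173 to 554 CPM (median 474) in members, against 0.041 to 4.37 CPM (median 0.204) in the other endothelial barcodes. It had a log2 fold change of 9.85 ± 0.35 (SE), adjusted p = 1.9e-13, and the fold rests on few UMIs in the others. Col13a1 (chr10:61838236-61979108), a gene for a transmembrane collagen, stood at 383 to 529 CPM (median 465) in members, against 0.0659 to 8.94 CPM (median 0.535) in the other endothelial barcodes (log2 fold change 8.93 ± 0.39 (SE), adjusted p = 2.8e-12). The 2 classes did not overlap in either gene, and Col13a1 was nearly level across the 7 member sums. Piezo2 (chr18:63010213-63387183), which encodes a stretch-gated ion channel, reached 135 to 331 CPM (median 243) in members, against 0.0876 to 7.07 CPM (median 0.419) in the other endothelial barcodes, with a log2 fold change of 8.59 ± 0.39 (SE), adjusted p = 4.2e-12. The other 9 of the 12 highest genes had log2 fold changes of 9.75 for Inhbb, an activin and inhibin subunit gene, 8.69 for Ntf3, which encodes neurotrophin 3, 8.48 for Car8, of a carbonic anhydrase-related protein without enzyme activity, and 8.3 for Ces2e, a carboxylesterase gene. They further included Fam167b (8.23), Exoc3l2 (8.1), whose product is related to a subunit of the exocyst, Col15a1 (7.78), a collagen gene of basement membranes, Enpp6 (7.6), which encodes a choline phosphodiesterase, and Hecw2 (7.57), a ubiquitin ligase gene. In each of the 12 genes every member sum lay above every sum of the others.

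Among 24 genes known from peripheral and fenestrated capillaries, 22 passed the filter on low counts, and 19 were higher and 2 lower of 22 tested (median log2 fold change 3.25). Plpp3, a lipid phosphatase gene whose product degrades lysophosphatidic acid and related lipids, had 4039, 2844 and 3578 CPM in 12-month members and 2748, 4450, 3310 and 5218 CPM in 3-month members, against 104, 25.4 and 38.8 CPM and 17.4, 23, 19.5 and 24.5 CPM in the other endothelial barcodes of the same libraries (log2 fold change 6.96 ± 0.27 (SE), adjusted p = 7.2e-13). It was detected in 98.5% of members, and no member sum came near any sum of the others. Plpp1, of the same enzyme family, was higher as well (4.94), and so was Emcn (2.24), which encodes endomucin, a surface sialoglycoprotein of capillaries and veins. Meox1, a homeobox gene, ranged over 195 to 339 CPM (median 271) in members, against 6.05 to 23.4 CPM (median 13.1) in the other endothelial barcodes (log2 fold change 4.29 ± 0.12 (SE), adjusted p = 5.6e-15). Ramp3, whose product pairs with the calcitonin receptor-like receptor to bind adrenomedullin, ranged over 427 to 521 CPM (median 457) in members, against 16.7 to 40.7 CPM (median 20.6) in the other endothelial barcodes (log2 fold change 4.34 ± 0.12 (SE), adjusted p = 5.6e-15). Aqp1, the gene of a water channel, had a log2 fold change of 6.0 at a mean of 98.6 CPM in members, against 1.78 CPM in the others. The list also held genes that moved the other way: Plat, the tissue plasminogen activator gene (-1.72), and Nostrin, which encodes a trafficking partner of nitric oxide synthase (-0.44). Cd34, an endothelial surface sialomucin gene, did not pass the test (-0.14, adjusted p = 0.18).

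**Figure D2:**
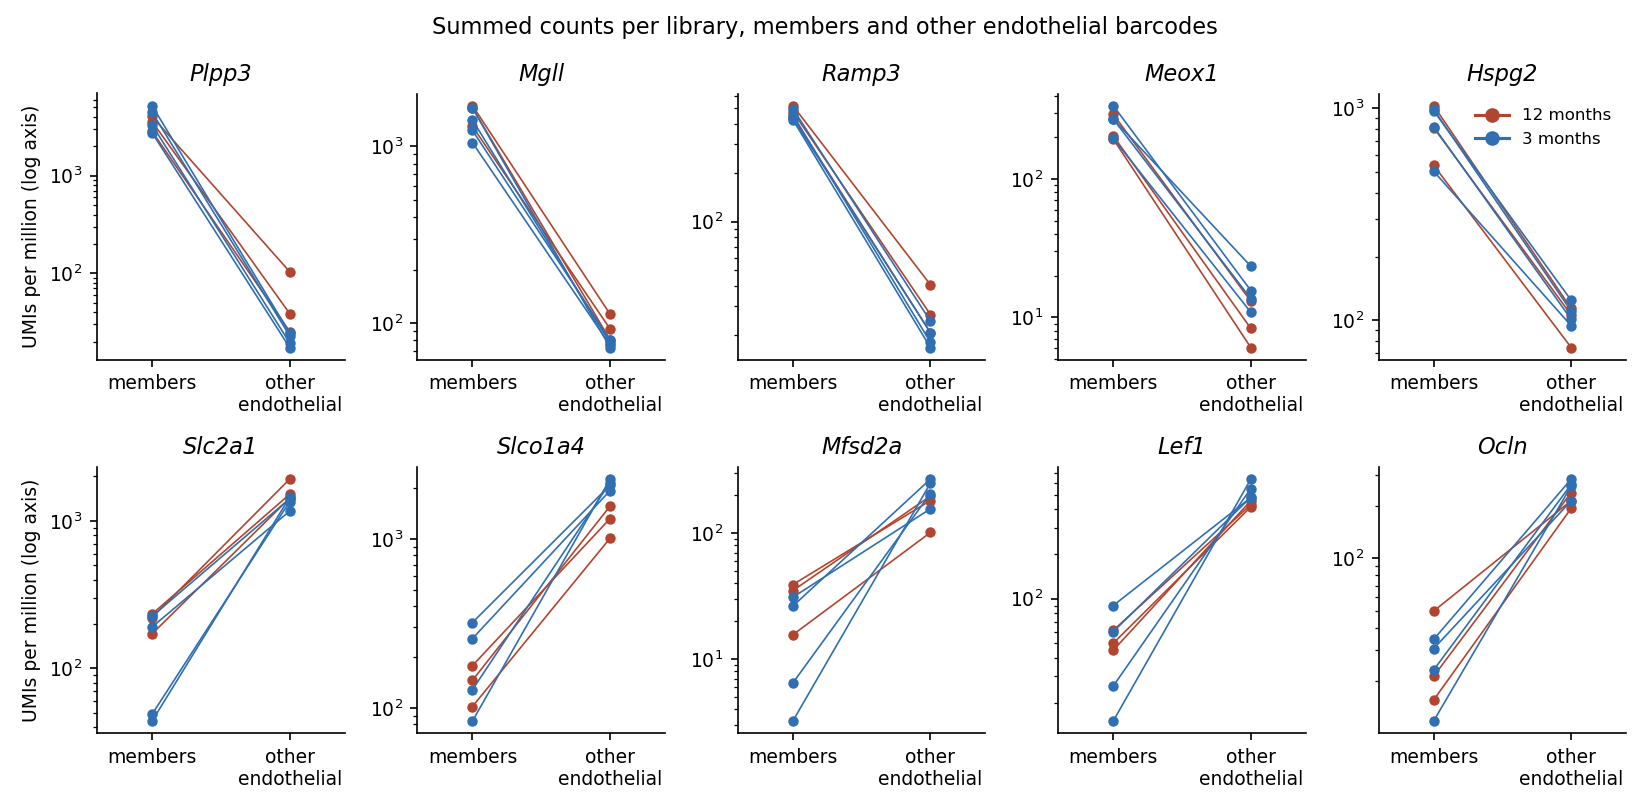
Levels of 10 genes by library in CPM on a log axis, members left and other endothelial barcodes right, 1 line per library (12 months in red, 3 months in blue). Plpp3, Mgll, Ramp3, Meox1 and Hspg2 lie higher and Slc2a1, Slco1a4, Mfsd2a, Lef1 and Ocln lower in the members of all 7 libraries, with no overlap between the classes.

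To show the sequence in front of a gene from each side, 250 bases upstream of the annotated start are printed 5′ to 3′ on the gene's own strand, from RefSeq on GRCm38.p6. For Plpp3 (chr4:105157097-105157346, plus strand) and Exoc3l2 (chr7:19463037-19463286, plus strand), both higher in members, the capitals mark the ETS core, searched as AGGAAG or its reverse complement CTTCCT, since ETS factors are a common class of endothelial regulators. For Lef1 (chr3:131156044-131156293, plus strand, 1 of its 4 annotated starts, within an intron of Lef1) and Mfsd2a (chr4:122961189-122961438, minus strand, 110 of its bases shared with exons of a neighbouring transcript), both lower in members, they mark the TCF/LEF core, searched as CTTTGA or its reverse complement TCAAAG, through which Lef1 and its relatives bind DNA.
Plpp3: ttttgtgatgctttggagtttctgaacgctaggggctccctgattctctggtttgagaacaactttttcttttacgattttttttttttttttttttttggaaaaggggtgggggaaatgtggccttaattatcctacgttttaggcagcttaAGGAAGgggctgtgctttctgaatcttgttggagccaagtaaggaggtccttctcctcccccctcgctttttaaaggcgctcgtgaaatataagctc
Exoc3l2: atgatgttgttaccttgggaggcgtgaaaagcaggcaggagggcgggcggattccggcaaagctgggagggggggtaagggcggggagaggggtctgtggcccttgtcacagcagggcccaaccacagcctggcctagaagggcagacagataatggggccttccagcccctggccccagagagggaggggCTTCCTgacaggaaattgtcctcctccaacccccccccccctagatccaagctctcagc
Lef1: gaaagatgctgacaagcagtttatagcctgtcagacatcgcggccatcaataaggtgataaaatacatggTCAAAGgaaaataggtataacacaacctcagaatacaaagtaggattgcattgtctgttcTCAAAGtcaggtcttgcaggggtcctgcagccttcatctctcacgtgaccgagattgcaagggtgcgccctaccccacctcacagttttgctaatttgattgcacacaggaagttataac
Mfsd2a: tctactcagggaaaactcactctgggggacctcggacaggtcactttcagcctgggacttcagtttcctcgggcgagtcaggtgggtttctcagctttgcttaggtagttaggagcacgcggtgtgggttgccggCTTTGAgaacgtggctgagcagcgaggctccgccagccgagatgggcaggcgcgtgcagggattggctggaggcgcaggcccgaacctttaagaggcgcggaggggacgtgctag
The ETS core began 97 bases before the start in Plpp3 and 59 in Exoc3l2. The TCF/LEF core began 180 and 120 bases before the start in Lef1 and 115 in Mfsd2a. The Lef1 window also holds 1 ETS core, left in lower case, 13 bases before the start, so the cores do not divide these genes by direction. The ETS core was present upstream of 29.5% of 32851 annotated starts, against 9 of 17 starts matched to the list of peripheral and fenestrated genes and 8 of 29 of the barrier solute carriers. The TCF/LEF core was present upstream of 13.8% of all starts, against 3 of 21 starts of the Wnt list, 3 of 10 of the barrier transcription factors, 7 of 29 of the barrier solute carriers and 2 of 17 of the peripheral list. These 4 genes were chosen because they hold a match. A match is a description of letters and neither a bound site nor a cause.

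Of 17 genes of fatty acid and lipoprotein handling tested, 10 were higher and 5 lower in members (median log2 fold change 1.42). Mgll, the gene of monoacylglycerol lipase, ranged over 1050 to 1701 CPM (median 1410) in members, against 72.8 to 112 CPM (median 80.3) in the other endothelial barcodes (log2 fold change 4.06 ± 0.11 (SE), adjusted p = 4.2e-15). Lpl, of lipoprotein lipase, the enzyme that Gpihbp1 anchors, had a log2 fold change of 5.07, yet its members ran from 4.24 to 140.2 CPM and overlapped the 0.263 to 5.41 CPM of the others. Scarb1, a receptor gene for high density lipoprotein, was higher (1.42), and Acsl3, which encodes an enzyme that activates fatty acids, was lower (-1.81). Slc27a1, of a fatty acid transporter of barrier endothelium, and Angptl4, of a lipase inhibitor, were also lower (-2.8 and -2.94).

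Kdr, Nrp1 and Flt4, receptor genes of the VEGF system, were higher. Flt1, of VEGF receptor 1, belonged to the endothelial gate and is not counted; it averaged 4802 CPM in members, against 4146 CPM in the others. Kdr, which encodes VEGF receptor 2, had 3099, 2933 and 3148 CPM in 12-month members and 1639, 3628, 2809 and 3812 CPM in 3-month members, against 447, 442 and 639.6 CPM and 529, 711, 653 and 768 CPM in the others (log2 fold change 2.3 ± 0.11 (SE), adjusted p = 1.1e-11). Its co-receptor gene Nrp1 ranged over 907 to 2466 CPM (median 1806) in members, against 141 to 214 CPM (median 189.5) in the other endothelial barcodes (log2 fold change 3.18 ± 0.12 (SE), adjusted p = 6.2e-13). Neither gene overlapped between the classes, and 3-month replicate 1 held the lowest member value of both. Flt4, of VEGF receptor 3, was higher too (1.39), and of the ligand genes Vegfc was lower (-2.03) and Vegfa higher (3.05, at a mean of 15.1 CPM in members, against 1.85 CPM). Over the 13 VEGF, angiopoietin and Tie genes tested, 8 were higher and 3 lower (median 0.75). Of 20 genes known from sprouting and tip cells, 13 were higher and 3 lower (median 0.84), among them Fscn1 (4.65), of an actin-bundling protein, Mcam (4.29), of the adhesion protein CD146, and Trp53i11 (3.99).

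In the Notch pathway 8 of 13 genes were higher and 4 lower (median 0.69). Nrarp, a feedback inhibitor gene of the pathway, rose by 2.67 on the log2 scale, the receptor gene Notch4 by 1.13 and the ligand gene Dll4 by 0.82, while the ligand gene Jag1 fell by 1.67. Dll4 overlapped between the classes and did not keep its call under every alternative.

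Matrix genes were higher for the greater part: of 18 genes of basement membrane and matrix tested, 12 were higher and 3 lower (median 1.01). Besides the collagen genes Col13a1 and Col15a1, Hspg2, which encodes perlecan, the large heparan sulphate proteoglycan of basement membranes, ranged over 506 to 1032 CPM (median 821) in members, against 74.4 to 124 CPM (median 106) in the other endothelial barcodes (log2 fold change 2.93 ± 0.10 (SE), adjusted p = 7.1e-14). Col4a1 and Col4a2, the genes of the main collagen IV chains, were higher (1.73 and 1.83). Fn1, the fibronectin gene, was lower (-3.03). Agrn, of agrin, and Col18a1 were the others that fell (-0.86 and -2.42).

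Of 20 genes that act on vessel tone 10 were higher and 6 lower (median 0.80). Ednrb, the endothelin receptor B gene, ranged over 247 to 681 CPM (median 361) in members, against 2.52 to 12.7 CPM (median 2.86) in the other endothelial barcodes (log2 fold change 6.72 ± 0.23 (SE), adjusted p = 1.5e-13), whereas Edn1, of the ligand endothelin 1, was lower (-3.14). Ptgs1, of cyclooxygenase 1, was higher (5.11), and Ptgs2, of the inducible cyclooxygenase 2, was the lowest of all genes that the naming rule took (-3.63), with 0 to 28.9 CPM (median 6.92) in members, against 43.1 to 438 CPM (median 58.3) in the others. Receptor and ligand thus differed in direction for endothelin, as the cyclooxygenase genes did.

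Of the insulin-like growth factor axis, 6 of 10 genes were higher and 3 lower (median 1.33). Igfbp7 ranged over 4528 to 9245 CPM (median 5727) in members, against 1127 to 2454 CPM (median 1555) in the other endothelial barcodes (log2 fold change 1.89 ± 0.09 (SE), adjusted p = 1.4e-11), and Igfbp4 was also higher (3.45); both encode binding proteins. The receptor genes differed, with Igf2r, a clearance receptor, higher (2.24) and Igf1r, the signalling receptor, lower (-2.65). In the TGF-beta and BMP list 6 of 20 genes were higher and 6 lower, a share close to that of all genes. Its largest changes were Bmp6 (5.79), the gene of an endothelial BMP ligand, and Tgfb2 (-2.1).

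Barrier transport was lower. Of 21 barrier solute carriers, 19 were lower and 1 higher (median -2.95). Slc2a1, the gene of the glucose transporter GLUT1 (chr4:119108711-119137983), had 221, 234 and 172 CPM in 12-month members and 191, 48.9, 226 and 44 CPM in 3-month members, against 1920, 1516 and 1427 CPM and 1166, 1351, 1415 and 1444 CPM in the others (log2 fold change -3.35 ± 0.24 (SE), adjusted p = 2.5e-09). Every member sum was lower, and replicates 2 and 4 at 3 months were the lowest. Slco1a4, of an organic anion transporter, ranged over 83.8 to 320.0 CPM (median 146) in members, against 1008 to 2252 CPM (median 1927) in the other endothelial barcodes (log2 fold change -3.43 ± 0.19 (SE), adjusted p = 9.1e-11). Slco1c1, which carries thyroid hormone into the brain, and Slc7a5, of the large neutral amino acid transporter, were lower by like amounts (-3.47 and -3.14). Slc29a1, of a nucleoside transporter, was the 1 gene that rose (2.27), and Slco2b1 did not pass (-0.06, adjusted p = 0.76).

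Efflux and vesicle genes followed in part. Of 9 ABC transporter genes, 5 were lower and 2 higher (median -1.34). Abcb1a, of P-glycoprotein, ranged over 126 to 331 CPM (median 196) in members, against 1067 to 1705 CPM (median 1149) in the other endothelial barcodes (log2 fold change -2.63 ± 0.16 (SE), adjusted p = 1.9e-10). Abcg2, of the breast cancer resistance protein, fell less (-1.52), Abca1 was lower (-1.85) and its relative Abcg1 higher (1.37). Of 13 receptors of vesicle transport, 7 were lower and 4 higher (median -2.23), with Tfrc, the transferrin receptor gene, at -3.22, Lrp8 at -2.97 and Bsg, of basigin, at -2.95. Mfsd2a, whose product carries lysophosphatidylcholine with omega-3 fatty acids and restrains vesicle traffic, ranged over 3.22 to 39 CPM (median 26.3) in members, against 101 to 268 CPM (median 196) in the other endothelial barcodes (log2 fold change -3.18 ± 0.25 (SE), adjusted p = 6.4e-09). The genes of caveolae moved little: 3 of 6 were higher and 2 lower, with Cavin3 at 1.08, Ehd2 at 0.92, Cavin2 at 0.71 and Cav1 at -0.52, and the last 3 overlapped between the classes.

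Junction genes were lower with 1 marked exception. Of 13 tested, 9 were lower and 2 higher (median -0.74). Ocln, the occludin gene, ranged over 11.8 to 50.1 CPM (median 23.1) in members, against 193 to 284 CPM (median 238) in the other endothelial barcodes (log2 fold change -3.27 ± 0.15 (SE), adjusted p = 6.6e-12), and Lsr, of a protein of tricellular junctions, was lower by a similar amount (-3.1). Cgnl1, of a junction scaffold, fell less (-1.79). Jam3, a junctional adhesion molecule gene, was higher (5.53). Esam, another adhesion gene of endothelial junctions, did not pass (0.10, adjusted p = 0.39).

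In the Wnt pathway of the barrier 15 of 19 genes were lower and 4 higher (median -1.73). Lef1, the transcription factor gene that is also a target of the pathway, had 45, 61.2 and 50.1 CPM in 12-month members and 90, 25.9, 60.1 and 15 CPM in 3-month members, against 457, 429.8 and 415 CPM and 479, 551, 482 and 638 CPM in the others (log2 fold change -3.37 ± 0.23 (SE), adjusted p = 9e-10). The classes were far apart in all libraries, and without called doublets Lef1 stood at 8.59 to 54.5 CPM in members (log2 fold change -4.09). Apcdd1 (-3.15) and Notum (-3.16), whose products restrain Wnt signals, and Tnfrsf19 (-3.19), a target of the pathway, were also lower. The 4 genes that rose were Tcf7l1 (1.89), of a TCF factor that can repress, and Tspan12 (1.74), Fzd4 (0.9) and Lrp5 (0.8), which encode parts of the receptor complex for norrin. Receptor genes of the norrin complex were thus higher while the named target and inhibitor genes were lower.

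Of 12 transcription factor genes tied to the barrier, 10 were lower and 1 higher (median -1.91). Foxq1 (-3.19) and Foxc1 (-2.25) were among the lower ones, and Sox18, of a factor shared by all endothelium, was the one that rose (0.83). Among 19 general endothelial transcription factor genes 6 were higher and 9 lower (median -0.20), with Meox1 the highest and Nr2f2 (-1.99), Mecom (-2.02) and Sox17 (-1.9) the lowest.

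Markers of vessel type were lower in several directions. Of 12 venous markers 9 were lower and 1 higher (median -1.36), including Vcam1 (-3.06) and Vwf (-2.87), and of 16 arterial markers 10 were lower and 4 higher (median -1.50), including Bmx (-3.59) and Gkn3 (-3.25). The arterial genes that rose included Efnb2 (2.01) and Gja4 (1.78). Of 12 brain capillary markers 10 were lower (median -3.00), and the exception was Rgcc (2.92), a gene also known from peripheral capillaries. Car4, of a carbonic anhydrase on capillary surfaces, did not pass (-0.08, adjusted p = 0.7). Of 6 lymphatic markers only Flt4 passed the filter on low counts, while Prox1, Lyve1, Pdpn, Mmrn1 and Reln did not.

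Besides transporters, the 12 genes with the lowest change held Htra1, a serine protease gene (-3.59), Stxbp6 (-3.58), which encodes a syntaxin-binding protein, Apod (-3.5), of apolipoprotein D, and Ddc (-3.45), of aromatic amino acid decarboxylase. Ptn, the gene of the growth factor pleiotrophin, ranged over 24.7 to 337 CPM (median 176) in members, against 1597 to 2647 CPM (median 1961) in the other endothelial barcodes (log2 fold change -3.59 ± 0.30 (SE), adjusted p = 1.2e-08). Ccdc141, Prom1 and Lrrn3 completed the 12 together with Bmx, Ptgs2 and the transporter genes above, at -3.47, -3.39 and -3.39. The log2 fold changes of the 12 lay between -3.63 and -3.39, a narrower span than the 7.57 to 9.85 of the 12 highest.

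What remained of these genes in members was set against the RNA found in droplets of another cell type. Microglia-gated barcodes, with at least 3 of Cx3cr1, P2ry12, Tmem119, Csf1r, C1qb and Trem2, should largely lack endothelial transporters. Their gate did not bar endothelial genes, and called doublets were kept among them. Some of these droplets may therefore hold endothelial cells too, which would raise their shares. At least 3 of the 6 member gate genes were detected in 12 of 1197 in 12-month replicate 1 and in 0 of 132 in replicate 2. Over all barcodes of each class, the median depth was 3155.5 UMIs in members, 2809 in the other endothelial and 1995 in the microglia-gated barcodes. With every barcode thinned to 1500 UMIs and shallower ones left out, 1074 members, 23908 other endothelial and 1968 microglia-gated barcodes remained. Slc2a1 was then detected in 13.4% of members, against 83.3% of the other endothelial and 15.9% of the microglia-gated barcodes. Unthinned, those shares were 21.9%, 91.1% and 17.3%. The member share of Slc2a1 thus lay below the microglia-gated one after thinning and above it before. Without called doublets its level was 28.2 to 176 CPM in members, and in members called doublets it was 129 to 1301 CPM. At 1500 UMIs the member share was also slightly below the microglia-gated one for Lef1 and Mfsd2a. Lef1 was found in 5.03% of members, against 48.8% of the other endothelial and 6.15% of the microglia-gated barcodes. Mfsd2a was found in 2.7% of members, against 26.2% of the other endothelial and 2.79% of the microglia-gated barcodes. Of the 19 barrier solute carriers that fell, 10 lay at or below the microglia-gated share in members, against 0 in the other endothelial barcodes. All 7 vesicle receptors that fell did so too, as did 7 of 15 Wnt genes, 4 of 10 barrier transcription factors and 5 of 6 genes of the metallothionein and hypoxia list. Microglia may express some of these genes themselves, and for those a lower share in members is no measure of background. The shares here and in the next paragraph pool the barcodes of all libraries, and the classes differ in library mix. Before thinning, 12-month replicates 1 and 3 gave 1197 and 1186 of 3224 microglia-gated barcodes, against 411 and 210 of 1388 members. No share was compared within libraries, so small gaps between members and microglia-gated barcodes do not rank the classes. What part free RNA and doublets have in the remaining member UMIs was not tested.

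Of the 5 efflux transporter genes that fell, 2 lay at or below the microglia-gated share in members, as did both that rose, while Abcb1a, Abcg2 and Abcc4 lay above it. Abcb1a was detected in 22.3% of members, against 82.3% of the other endothelial and 12% of the microglia-gated barcodes, and Abcg2 in 35.2% of members, against 66.5% of the other endothelial and 14.3% of the microglia-gated barcodes. In Abcb1a and Abcg2 the member share lay between those of the other classes. Among genes that rose, Plpp3 was found in 95.6% of members, against 3.37% of the other endothelial and 2.24% of the microglia-gated barcodes, Kdr in 94.6% of members, against 54.9% of the other endothelial and 9.86% of the microglia-gated barcodes and Btnl9 in 40.3% of members, against 0.0669% of the other endothelial and 0.102% of the microglia-gated barcodes. Unthinned shares were 98.5%, 8.54% and 3.26% for Plpp3. Fscn1, Ptgs1 and Cd74 are genes that microglia express themselves, so the microglia-gated share is no background for them. Fscn1 was found in 10.5% of members, against 0.259% of the other endothelial and 30.2% of the microglia-gated barcodes, and Ptgs1 in 25.8% of members, against 0.749% of the other endothelial and 45.8% of the microglia-gated barcodes. Cd74 was found in 4.93% of members, against 0.987% of the other endothelial and 9.25% of the microglia-gated barcodes.

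Per barcode, 30 barrier transporter genes were summed. The median over members not called doublets was 1409 to 2317 CPM across the 7 libraries, and 2685 to 7024 over members called doublets. The corresponding medians were 10252 to 17341 in the other endothelial barcodes and 1408 to 2387 in microglia-gated barcodes. Members not called doublets lay within about the span of the microglia-gated ones, and called doublets between them and the other endothelial barcodes. The sum joins genes whose member share lay above the microglia-gated one, such as Abcb1a and Abcg2, with genes where it did not. Like totals therefore do not mean like levels of each gene. Called doublets were left out of the members only. Without called doublets the log2 fold change of Slc2a1 was -4.14.

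**Figure D3:**
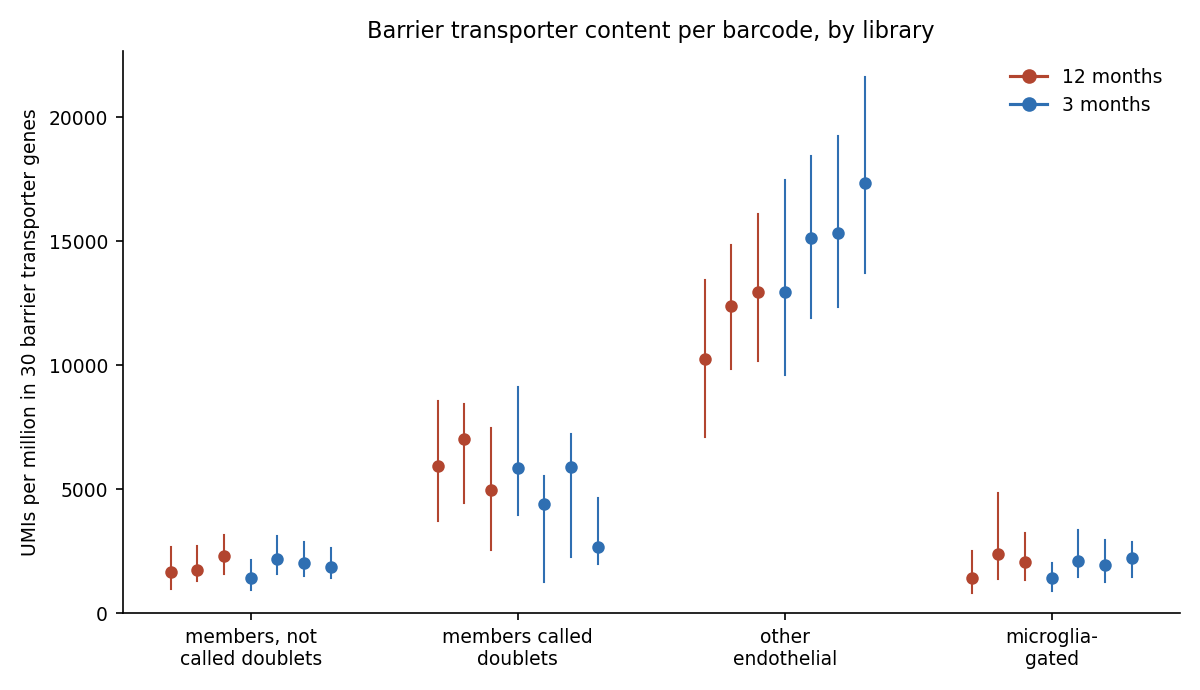
CPM in 30 barrier transporter genes per barcode. Points are the median and lines the quartiles over the barcodes of 1 library (12 months in red, 3 months in blue). Members not called doublets lie at 1409 to 2317 and microglia-gated barcodes at 1408 to 2387, while other endothelial barcodes lie at 10252 to 17341 and members called doublets at 2685 to 7024.

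Immune genes moved in both directions. Of 14 genes of MHC class I antigen presentation 12 were higher and 0 lower (median 0.61), with Psmb9 (0.9) and Psmb8 (0.75), immunoproteasome genes, Tap1 (0.7), a peptide transporter gene, and H2-D1 (0.72), a class I chain gene. All 4 overlapped between the classes, and H2 genes are near-identical copies among which reads may be split, so single H2 values are uncertain. Of 7 class II genes 6 were higher (median 1.12), of which 4 lay at or below the microglia-gated share in members, which is no background for genes that microglia express. Of the class II genes 2 of 5 tested were higher in the band of like UMI number, 2 of 5 after thinning and 4 of 7 with DESeq2. Of 24 interferon response genes 13 were lower and 4 higher (median -0.38), with Ifit1 (-1.51) and Ifit3 (-1.4) lower and Ifitm2 (1.64) higher; the Ifit and Ifitm families also hold close copies. Of 15 genes of leukocyte adhesion and trafficking 7 were lower and 4 higher (median -0.56), with Cx3cl1, of the membrane-bound chemokine fractalkine, and Podxl, of podocalyxin, higher (1.68 and 1.32) and Vcam1 and Ackr1 lower.

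Stress and growth genes changed less uniformly. Mt1 and Mt2, the metallothionein genes, were lower (-3.26 and -3.31), and in their list with hypoxia genes 6 of 10 were lower and 2 higher (median -1.29). Of 18 immediate early genes, which digestion of tissue can induce, 3 were higher and 6 lower (median -0.04). These shares are not far from the 19.6% and 23% of all genes tested. Ccn2 (2.0) and Socs3 (1.09) were higher and Atf3 (-1.25) and Klf6 (-0.97) lower. Of 9 proliferation genes tested 5 were higher and 1 lower (median 0.66), but among those with at least 50 CPM there were only Pcna (0.29), which lost its call under other settings, and Stmn1 (-1.04). Without called doublets 3 of 7 proliferation genes tested were higher and 1 lower.

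Markers of other cell types were summed as a check. The 12 choroid plexus epithelial markers came to 169 to 301 CPM at 12 months and 127 to 786 CPM at 3 months in members, against 985 to 3473 CPM at 12 months and 90.5 to 5964 CPM at 3 months in the other endothelial barcodes, with 11 of 12 lower in members. In 3-month replicate 4 members held more than the others (139 against 90.5 CPM). With DESeq2 8 of 12 were lower, and after thinning 1 of 2 tested. In the band of like UMI number 0 of 2 tested were lower and 1 was higher. The 8 pericyte markers came to 90 to 316 CPM at 12 months and 40.8 to 162 CPM at 3 months in members, against 43.7 to 136 CPM at 12 months and 36.2 to 48.1 CPM at 3 months in the others, with 4 of 6 tested higher in members and Atp13a5 and Cspg4 below the filter. The 8 microglial markers came to 111 to 215 CPM at 12 months and 55.2 to 65.8 CPM at 3 months in members, against 76.1 to 202 CPM at 12 months and 37.5 to 54.7 CPM at 3 months in the others, with 1 of 8 higher. Erythroid RNA reached 3322 to 31631 CPM at 12 months and 459 to 18005 CPM at 3 months in members, against 8578 to 28278 CPM at 12 months and 5551 to 17897 CPM at 3 months in the others. The 6 astrocyte markers came to 139 to 214 CPM at 12 months and 116 to 313 CPM at 3 months in members, against 31.6 to 88.2 CPM at 12 months and 72.3 to 89.6 CPM at 3 months in the others, of which Gja1, a connexin gene that endothelial cells also express, made up 195 CPM in members on average, against 37.8 CPM, and the defining markers Aqp4 and Gfap stood at 0.102 and 0.0508 CPM in members. Sums of T and NK cell, B cell, neutrophil, fibroblast and ependymal markers stayed at or under 18.2 CPM in every member sum, and those of smooth muscle, other macrophages, neurons and oligodendrocytes at or under 77.9 CPM. What part such RNA has in the differences was not tested.

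The members were next set against 5410 venous-gated endothelial barcodes that were no members, a class with more UMIs per barcode than the members. Of 11052 genes tested, 2461 (22.3%) were higher and 2434 (22%) lower in members (edgeR, library as a term, venous gate genes left out). The peripheral and fenestrated list had 20 of 22 genes higher and 1 lower (median 4.09), and the barrier solute carriers 18 of 20 lower and 1 higher (median -2.82). Wnt genes were lower in 15 of 19, and sprouting and tip cell genes higher in 14 of 18 (median 2.20). Both comparisons use the same member sums, so they are given side by side and not as independent results.

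Btnl9 held 173 to 554 CPM (median 474) in members, against 0 to 0.232 CPM (median 0) in the venous-gated barcodes, Col13a1 383 to 529 CPM (median 465) in members, against 0 to 0.764 CPM (median 0.264) in the venous-gated barcodes and Exoc3l2 228 to 371 CPM (median 309) in members, against 0 to 1.53 CPM (median 0.423) in the venous-gated barcodes. Their log2 fold changes of 11.9, 10.82 and 9.28, like those of Inhbb, Ntf3, Piezo2, Car8 and Fam167b, rest on a handful of UMIs in the venous-gated class and depend on the prior count of the fit. On the other side stood Ptgs2, with 0 to 28.9 CPM (median 6.92) in members, against 96.3 to 1461 CPM (median 114) in the venous-gated barcodes (log2 fold change -5.01 ± 0.29 (SE), adjusted p = 2.5e-10), and Ctsc, of the protease cathepsin C, with 4.3 to 28 CPM (median 6.92) in members, against 196 to 288 CPM (median 245) in the venous-gated barcodes (log2 fold change -4.06 ± 0.22 (SE), adjusted p = 1.2e-10). Col6a6, a collagen VI gene, Cyp2e1, a cytochrome P450 gene, Apod, Myof, of myoferlin, Kbtbd11 and Ptn were the other 6 of the 8 lowest, at -4.47, -4.47, -4.25, -4.0, -3.99 and -3.99. Arterial markers were split, with 8 of 15 higher in members than in the venous-gated barcodes and 6 lower (median 0.38).

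Between the ages, members differed in few genes. Of 8427 genes tested in 674 members of the 12-month and 714 members of the 3-month libraries, 17 (0.202%) were higher and 5 (0.0593%) lower at 12 months (edgeR). Fbxl18, of an F-box protein of ubiquitin ligases, had 46.7, 100.2 and 94.2 CPM in 12-month members, against 11.9, 20.3, 7.47 and 12.9 CPM in 3-month members (log2 fold change 2.63 ± 0.37 (SE), adjusted p = 0.0059). Lpl had 140.2, 106 and 91.2 CPM in 12-month members, against 4.24, 28.6, 30.2 and 40.8 CPM in 3-month members (log2 fold change 2.13 ± 0.40 (SE), adjusted p = 0.045). The ages did not overlap in either gene. Epb41, of a membrane skeleton protein, Depp1, a target gene of FoxO factors, and Fmo2, of a flavin monooxygenase, were the other higher genes that met the naming rule (1.63, 1.6 and 1.44). Nrarp had 53.6, 44.5 and 69.9 CPM in 12-month members, against 142, 267, 117 and 259.9 CPM in 3-month members (log2 fold change -1.74 ± 0.33 (SE), adjusted p = 0.045), with no overlap either. The transcription factor gene Cebpb and the kinase gene Sik1 were lower as well (-1.7 and -1.69). None of these 8 calls held in every fit with 1 library left out. Leaving out 12-month replicate 1, 2 or 3 gave 4, 9 or 2 genes, and leaving out 3-month replicate 1, 2, 3 or 4 gave 54, 9, 10 or 6 genes. No list of endothelial genes or pathways had more than 1 gene called between the ages.

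Some values moved with the ages. In the other endothelial barcodes, Fbxl18 held 14.8, 26.2 and 20 CPM at 12 months, against 8.43, 9.56, 8.59 and 10.1 CPM at 3 months, Lpl 5.41, 2.49 and 1.38 CPM at 12 months, against 0.263, 1.41, 0.759 and 1.23 CPM at 3 months, and Nrarp 16.4, 15.1 and 16.3 CPM at 12 months, against 20.5, 24, 26 and 27.8 CPM at 3 months. Microglial marker sums in members were higher at 12 months, as given above, and 2 of 3 microglial markers tested were higher there. Xist, a transcript of female cells, and Ddx3y, a gene of the Y chromosome, stood at 1.73, 0 and 0 CPM in 12-month members, against 522, 582, 0 and 0 CPM in 3-month members, and 119, 128 and 88.1 CPM in 12-month members, against 0, 0, 113 and 89.1 CPM in 3-month members. By these 2 genes the ages differed in sex make-up. What part sex and the other values above have in the differences was not tested.

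Whether the difference between members and the other endothelial barcodes itself differed between the ages was tested with a class by age term. Of 12028 genes, 7 (0.0582%) had a more positive and 82 (0.682%) a more negative difference at 12 months. The other endothelial class was not alike in all libraries. Plvap was detected in 3.72% of its barcodes in 12-month replicate 1, against 0.334 to 1.49% in the remaining libraries. Median depth there was also the lowest, at 1075 UMIs. What part member RNA among the others has in these terms was not tested. Sox4, a transcription factor gene, had 156, 189 and 189.9 CPM in 12-month members, against 127, 283, 183 and 95.6 CPM in 3-month members, while the others held 21, 21.4 and 24 CPM at 12 months, against 57, 75, 61.1 and 76.7 CPM at 3 months (interaction log2 fold change 1.56 ± 0.28 (SE), adjusted p = 0.011). In Sox4 the ages overlapped in the members and not in the others. Ivns1abp had 604, 406 and 354 CPM in 12-month members, against 258, 476, 354 and 542 CPM in 3-month members, and 40.3, 50.4 and 60.6 CPM at 12 months, against 138, 170.0, 122 and 141 CPM at 3 months in the others (log2 fold change 1.55 ± 0.25 (SE), adjusted p = 0.0049). Prdm1, of the repressor Blimp1, Man2a1, of a Golgi mannosidase, and Phldb2 followed (1.3, 0.89 and 0.78).

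At the other end, Thbs1, of the angiogenesis inhibitor thrombospondin 1, had 27.7, 27.8 and 28.9 CPM in 12-month members, against 32.3, 141, 70.8 and 74.1 CPM in 3-month members, while the others held 5.82, 3.26 and 2.58 CPM at 12 months, against 0.724, 2.29, 1.05 and 1.27 CPM at 3 months (log2 fold change -3.06 ± 0.34 (SE), adjusted p = 8e-05). Emp1, of an epithelial membrane protein, had 53.6, 106 and 47.1 CPM in 12-month members, against 46.7, 91.4, 61.5 and 82.7 CPM in 3-month members, and 97.3, 54.3 and 25 CPM at 12 months, against 3.95, 14.4, 6.81 and 10.3 CPM at 3 months in the others (log2 fold change -3.0 ± 0.32 (SE), adjusted p = 7.9e-05). In Emp1 the ages overlapped in the members and separated in the others. Igfbp4 had 119, 106 and 79 CPM in 12-month members, against 180.0, 222, 165 and 282 CPM in 3-month members, and 78.4, 25.1 and 15.2 CPM at 12 months, against 12, 7.45, 8.47 and 13.8 CPM at 3 months in the others (log2 fold change -3.0 ± 0.30 (SE), adjusted p = 7.2e-05). Here the members were lower at 12 months and the others higher, with no overlap in either class. S100a6, of a calcium-binding protein, and Cebpb had interaction values of -2.16 and -2.13. Of 18 immediate early genes 6 had a more negative difference at 12 months (median -0.93). The 89 interaction calls became 52 without 12-month replicate 1 and 33 without 12-month replicate 2.

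**Figure D4:**
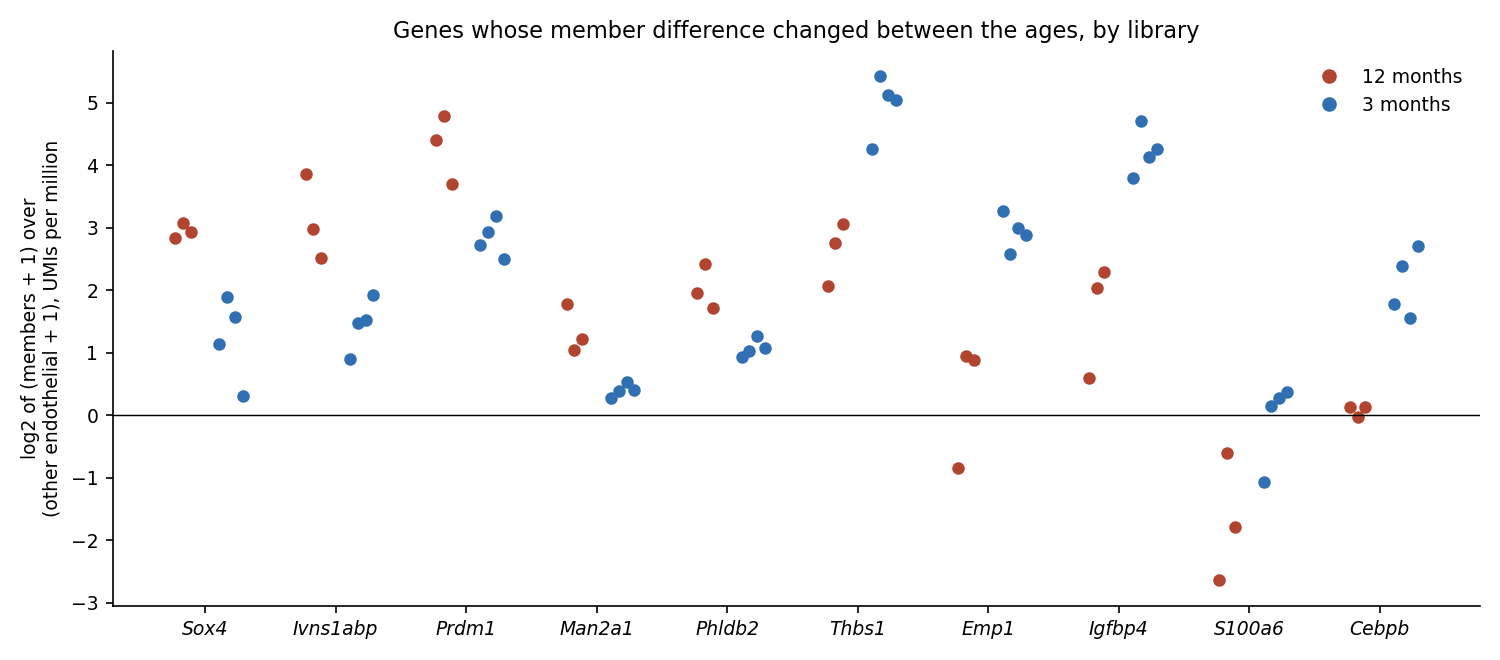
Difference between members and other endothelial barcodes by library, as log2 of CPM plus 1, for the 10 genes with the highest and lowest class by age terms (12 months in red, left, and 3 months in blue, right). The 5 genes at left lie higher and the 5 at right lower at 12 months; interaction values run from 1.56 for Sox4 to -3.06 for Thbs1.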

How the data were processed

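The authors deposited UMI counts for each gene and barcode, not normalized, which they made with Cell Ranger 4.0.0 (12 months) and 6.1.1 (3 months), per the file headers. The submitters' processing notes name Cell Ranger, Seurat and the build mm10, with no settings given. The 32285 genes shared by all files were used, a yellow fluorescent protein row with 0 UMIs was left out, and 38 symbols that stand on more than 1 line were told apart by gene ID and not named. Coordinates are those of the GENCODE vM21 annotation of GRCm38.

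Counts of each class were added up within each library. Genes that passed edgeR's filterByExpr were tested with edgeR 4.0.16 (TMM, quasi-likelihood) in R 4.3.3, with Benjamini-Hochberg adjustment and a threshold of 0.05. The class fits had the library as a term, the age fit had age alone, and the interaction had library, class and class by age. The fits were tested on simulated data first. Shares were compared by exact permutation (scipy 1.17.1). For thinned values each barcode was reduced at random to 1500 UMIs and shallower ones were left out. In the thinned fits and gate shares the member, venous and arterial gates were applied again to the thinned counts. Thinned detection shares of single genes kept the classes of the full counts. Doublets were kept, except in 1 alternative that removed the 0.8% per 1000 barcodes with the highest scrublet scores (scanpy 1.11.5). Other alternatives were DESeq2 1.42.0, each library left out, no filter beyond 1 count, barcodes between the 25th and 75th percentile of the member UMIs, thinned counts, at least 4 of 6 gate genes, Plvap and at least 2 others, at least 1000 genes, at most 10% mitochondrial UMIs, 0 UMIs of the barred genes, at least 20 members per library and a replicate block. Added after seeing the data were members that pass neither the venous nor the arterial gate, and barcodes without choroid plexus epithelial RNA.

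Named were genes past the threshold with a mean of at least 50 CPM in 1 class: with the same direction in every library, the 12 highest and 12 lowest against other endothelial barcodes and the 8 highest and 8 lowest against venous-gated barcodes, plus up to 4 genes of each list with the largest change, and up to 5 each way for the ages, without overlap, and for the interaction. Predicted, mitochondrial, ribosomal and sex-linked genes were left out. Plpp1, Emcn, Aqp1, Vegfa, Flt1, Plat, Nostrin, Slc27a1, Angptl4, Col4a1, Col4a2, Agrn, Col18a1, Slc29a1, Tcf7l1, Tspan12, Fzd4, Lrp5, Sox18, Efnb2, Gja4, Rgcc, Gja1, Xist and Ddx3y fall outside this rule and were chosen after their values were seen. One gene that met the rule is not reported here. The members and the lists were chosen with earlier results of these data known.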

Additional observations from a re-analysis of the deposited data

Results flagged for a closer look

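In 6 of 118 named results with 4 libraries in a group, the log2 ratio of members over other endothelial barcodes of 1 library lay far from those of the other 3; chance flags about 1 in 20 such groups (5%), so 6 flags are near that number. Of these, 4 concern 3-month replicate 1: Piezo2 with 6.30 where the nearest of the others had 7.78, Fscn1 with 3.08 against 4.51, Nrp1 with 2.37 against 3.13 and Bmp6 with 4.11 against 5.77. The other two concern 3-month replicate 4, with Mecom at -2.79 and Ifit3 at -1.75, both lower than in the remaining libraries.

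The difference between members and other endothelial barcodes differed between 12 and 3 months by the class by age term of edgeR (log2, adjusted p under 0.05) for 13 of the named genes. It was more positive at 12 months for Sox4 (1.56), Ivns1abp (1.55), Prdm1 (1.3), Man2a1 (0.89) and Phldb2 (0.78), and more negative for Thbs1 (-3.06), Emp1 (-3.0), Igfbp4 (-3.0), S100a6 (-2.16), Cebpb (-2.13), Socs3 (-1.94), Mcam (-1.47) and Plpp3 (-1.42).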

How the results depend on the processing

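The counts of genes called between members and other endothelial barcodes (5123) stayed within 1.5 times that number under the alternatives run except thinning (2908), and ran from 4231 to 5379 with 1 library left out. Against venous-gated barcodes (4895) the exceptions were the UMI band (3249) and thinning (2225), and leaving out 1 library gave 3978 to 5030. Thinning and the UMI band both use fewer barcodes and test fewer genes. Thinning also uses fewer UMIs per barcode and applies the member gate again. Of 111 named genes in the first comparison 109 kept their call with each library left out and 107 under every other setting (lost at least once: Ackr1, Cd74, Dll4 and Pcna), and all 16 in the second kept theirs; none changed sign. The 22 genes called between the ages became 2 to 54 with 1 library left out, 35 with DESeq2, 159 with no filter, 11 in the UMI band and 11 after thinning, 14 without called doublets, 4 with at least 1000 genes per barcode and 13 with 0 barred UMIs. The 89 interaction calls became 33 to 103 with 1 library left out, 243 with no filter, 136 in the UMI band, 147 after thinning and 57 with 4 of 6 gate genes; of 10 named genes 5 kept their call with each library left out, while each of the 10 lost it under at least 1 other setting. The causes were not tested. The age difference in member share was -0.344 with 4 of 6 gate genes and ran from -2.54 to 2.52 percentage points with 1 library left out, negative without 12-month replicate 1 and without 3-month replicate 4 (-0.0265). A replicate block gave 40 age calls and 0 interaction calls by edgeR (469 at an unadjusted p under 0.05). Same-numbered libraries did not deviate together (correlations 0.00312, 0.0434 and -0.06 over 3447 genes). Libraries with different numbers gave -0.0756 to 0.105. These correlations thus showed no pairing by number, but so few of them cannot exclude it. The venous and arterial gate differences kept their sign under every setting, with p = 0.0312 (exact permutation test) as the smallest possible with 6 libraries. The 53 members of 12-month replicate 2 limit what that library can show.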
